A study of Homo sapiens with 4 samples.

Results

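The genes described here encode the protein subunits of the signal recognition particle (SRP) and of its receptor. They were taken by name: SRP9, SRP14, SRP19, SRP54, SRP68 and SRP72 for the particle, and SRPRA (older symbol SRPR) and SRPRB for the receptor. All 8 were among the 27011 genes of the count table, and all 8 were among the 11606 genes that passed a filter on low values (FPKM above 2 in at least 1 library) and were tested. SRP9 was set against its 7 partners.

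The data were RNA-Seq libraries of total RNA from HEK293T cells, a human embryonic kidney line that carries the SV40 large T antigen. The 4 libraries came from 2 genotypes, WT and Helz-null, with 2 libraries each. The Helz-null cells lack the RNA helicase HELZ and were a line made with Cas9 and a guide against exon 8 of HELZ. With 1 edited line, loss of HELZ and other differences between that line and the WT cells cannot be told apart. Untreated cells of both genotypes were harvested 24 h after plating, and libraries were made with a TruSeq kit. The deposited counts summed to 65005666 and 42342295 in WT replicates 1 and 2, and to 41745401 and 70464140 in Helz-null replicates 1 and 2.

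SRP is a ribonucleoprotein that binds the signal sequence of a nascent secretory or membrane protein as it leaves the ribosome, and brings the translating ribosome to the endoplasmic reticulum (ER). Its Alu domain, which holds the SRP9/SRP14 heterodimer, slows elongation, and its S domain, with SRP19, SRP54, SRP68 and SRP72, recognizes the signal sequence and the receptor. The receptor, a heterodimer of SRPRA and SRPRB on the ER membrane, releases the ribosome to the SEC61 channel.

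HELZ itself was examined first, as a check of the labels. Its normalized expression, as CPM (counts scaled to the TMM-adjusted total over tested genes), was 98.7 and 102.8 in WT and 36.6 and 37.5 in Helz-null. Both Helz-null libraries lay well below both WT libraries, as labelled, and HELZ mRNA was still counted in them. The log2 fold change (Helz-null against WT, as for every fold change below) was -1.44 ± 0.043 (SE, n = 2 and 2), with an adjusted p of 4.09e-30 by edgeR's quasi-likelihood test with Benjamini-Hochberg adjustment over all genes tested.

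Markers of the cell line were examined in the same way. The 7 genes taken as HEK293T-like markers summed to 1723.1 and 1720.8 CPM in WT and to 1787.0 and 1771.3 CPM in Helz-null, and VIM was the most abundant of them. Of these 7, the neurofilament gene NEFM was higher in Helz-null (log2 fold change 0.89), INA (-1.05) and VIM (-0.14) were lower, NEFL, LIN28B and CDH2 were not called, and PAX2 (5.13 to 6.99 CPM) was not tested. The part of these differences in the results below was not tested. The 6 markers of lymphocytes, hepatocytes, fibroblasts and endothelium summed to 0.568 to 0.772 CPM in each library, most of it from LUM, and DCN was at 0 in all 4 libraries.

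Of the 8 genes, 2 were lower in Helz-null at an adjusted p under 0.005, SRP9 and SRP68, against 15.0% of all genes tested that were lower at the same threshold. None was higher in edgeR's quasi-likelihood test, against 13.4% of all genes tested. At an unadjusted p under 0.05, 4 of the 8 were lower (25.2% of all genes tested) and 0 higher (24.5%), and the same counts held at an adjusted p under 0.05 (22.1% and 20.9% of all genes tested). DESeq2, at an adjusted p under 0.005, called 2 lower (11.2% of all genes tested) and 0 higher (9.56%). The median log2 fold change of the 8 was -0.07, beside -0.002 over all genes tested. Both Helz-null libraries lay below both WT libraries for 5 of the 8 genes (35.2% of all genes tested) and above both for 2 (34.3%). With 2 libraries a group, such separation is common and says little about a single gene. SRPRA was the only one of the 8 whose groups overlapped. What set SRP9 apart within the list was the size of its difference, since the 6 genes that were not called ranged from -0.10 to 0.07.

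**Figure D1:**
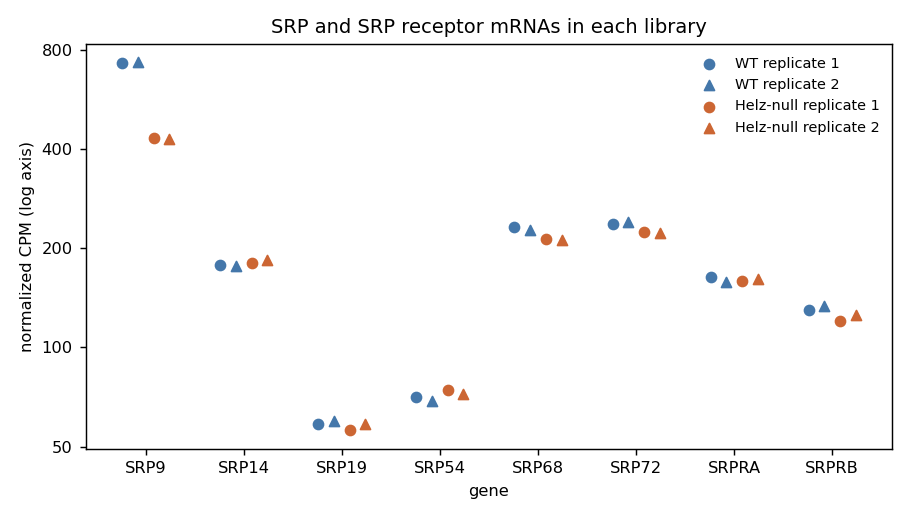
Normalized CPM (log axis) of the 8 SRP and SRP receptor genes in each library, with WT in blue, Helz-null in orange, and replicates 1 and 2 as circles and triangles. SRP9 drops from about 730 CPM in WT to about 429 CPM in Helz-null, while the points of each other gene lie close together.

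SRP9, a subunit of the Alu domain, lies at chr1:225965515-225978170 (GRCh37, plus strand, 3 exons in the canonical transcript), on the long arm of chromosome 1. Its normalized expression was 728.6 and 731.5 CPM in WT and 430.1 and 427.7 CPM in Helz-null. The replicates of each genotype were nearly superimposed, and the groups were far apart. SRP9 mRNA fell to 58.7% of its WT level, a log2 fold change of -0.77 ± 0.027 (SE, n = 2 and 2; edgeR's quasi-likelihood test, Benjamini-Hochberg adjusted p = 6.22e-27). Only 0.827% of the genes tested had a lower log2 fold change. In these bulk samples, fewer cells that make a transcript and less of it per cell cannot be told apart.

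SRP14, which forms the heterodimer with SRP9, lies at chr15:40327891-40331382 (minus strand, 5 exons). It was at 177.9 and 176.6 CPM in WT and at 180.6 and 184.6 CPM in Helz-null. The Helz-null libraries were slightly above the WT libraries, and the difference did not pass the test (log2 fold change 0.04 ± 0.031, edgeR's quasi-likelihood test, adjusted p = 0.262). The Alu domain pair thus differed within itself: the per-length ratio of SRP9 to SRP14 counts was 2.98 and 3.02 in WT, against 1.73 and 1.69 in Helz-null. The log2 fold change of SRP9 minus that of SRP14 was -0.81, with a 95% interval of -0.89 to -0.73 (normal interval from both standard errors, taken as independent). An antisense gene, SRP14-AS1, was counted at 1.62 to 2.58 CPM and was too low to be tested. By its annotated position (chr15:40331443-40372815, plus strand) it lies beyond the end of SRP14 and does not overlap it. The strand setting of the counting was not given in the sources used here. Where genes on opposite strands do overlap, their reads cannot be told apart.

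The promoters of these heterodimer partners are shown because one mRNA of the pair fell and the other did not pass the test. The sequences are the 250 bases before the start of transcription from RefSeq (GRCh38.p14 table), which held entries for 7 of the 8 genes. Exact matches placed them in GRCh37 at chr1:225965278-225965527 on the plus strand for SRP9 and at chr15:40331383-40331632 on the minus strand for SRP14 (the first of 2 entries). Capitals mark matches, on either strand, to the GC box GGGCGG, the CCAAT box CCAAT and the TATA box TATAAA.
SRP9: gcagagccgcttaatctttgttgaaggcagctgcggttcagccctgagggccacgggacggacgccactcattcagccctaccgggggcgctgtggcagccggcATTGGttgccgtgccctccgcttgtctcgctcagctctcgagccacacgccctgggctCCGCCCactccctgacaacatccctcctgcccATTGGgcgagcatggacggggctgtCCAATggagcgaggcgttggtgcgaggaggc
SRP14: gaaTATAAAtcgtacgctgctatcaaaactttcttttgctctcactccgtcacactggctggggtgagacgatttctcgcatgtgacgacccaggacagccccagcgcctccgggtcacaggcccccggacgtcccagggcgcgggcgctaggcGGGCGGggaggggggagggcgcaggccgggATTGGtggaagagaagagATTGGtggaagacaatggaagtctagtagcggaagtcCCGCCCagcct
The SRP9 promoter held 1 GC box and 3 CCAAT boxes, and the SRP14 promoter held 2 GC boxes, 2 CCAAT boxes and 1 TATA box. GC content was 66.4% for SRP9 and 61.6% for SRP14. The CCAAT letters occurred in 2 of the 7 genes, these partners, and in 32.0% of 35116 promoters of the same length. The GC box occurred in 4 of the 7 genes and in 42.6% of all promoters, and the TATA letters in 2 of the 7 genes (SRP14 and SRP68) and in 10.7%. The ETS core CCGGAAG was also searched on both strands, and was in SRP19 and SRP54 and in 8.52% of all promoters. Overlapping matches were allowed. A gene was counted if any of its entries matched, while the percentages are of single promoters. Of the 9 entries, 3 held the CCAAT letters, 6 the GC box, 3 the TATA letters and 2 the ETS core. For SRP68 the TATA letters were only in the entry that lies within the gene (chr17:74049738-74049987). Such matches describe the letters only.

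Among the S domain genes, SRP68 was the one called. SRP68 binds SRP RNA and pairs with SRP72, and its gene lies at chr17:74034856-74068598 (minus strand, 16 exons). It was at 231.9 and 227.0 CPM in WT and at 212.6 and 211.6 CPM in Helz-null. The groups did not overlap, but the gap was small: the log2 fold change was -0.11 ± 0.030 (edgeR's quasi-likelihood test, adjusted p = 0.0017). The call was lost without Helz-null replicate 1 (adjusted p = 0.0219), without Helz-null replicate 2 (0.0389), without WT replicate 1 (0.0087) and with library size as the only scaling (0.0247), and the adjusted p ranged from 0.000274 to 0.0389 over all alternatives of edgeR's quasi-likelihood test and DESeq2 with Benjamini-Hochberg adjustment.

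SRP72, the partner of SRP68 (chr4:57333783-57369847, plus strand, 19 exons), was at 236.6 and 239.9 CPM in WT and at 224.1 and 222.8 CPM in Helz-null. Its log2 fold change was of much the same size as that of SRP68, -0.09 ± 0.030, but missed the threshold (edgeR's quasi-likelihood test, adjusted p = 0.0101). The groups again did not overlap. SRP54, the GTPase that binds the signal sequence (chr14:35451163-35498892, plus strand, 16 exons), was at 70.6 and 68.9 CPM in WT and at 74.3 and 72.3 CPM in Helz-null. It lay slightly above WT in both Helz-null libraries and was not called (log2 fold change 0.07 ± 0.040, edgeR's quasi-likelihood test, adjusted p = 0.168). SRP19, which helps SRP54 to join the SRP RNA (chr5:112196885-112234068, plus strand, 5 exons), was at 58.7 and 59.9 CPM in WT and at 56.0 and 58.6 CPM in Helz-null. The Helz-null libraries were below the WT libraries by less than the distance between themselves, and SRP19 was not called (-0.05 ± 0.044, edgeR's quasi-likelihood test, adjusted p = 0.417).

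For the receptor, SRPRA, the GTPase subunit that meets SRP54 (chr11:126132833-126139039, minus strand, 14 exons), was at 163.7 and 157.3 CPM in WT and at 158.9 and 161.6 CPM in Helz-null. Both Helz-null values lay between the WT values. Its log2 fold change was -0.003 ± 0.032 (edgeR's quasi-likelihood test, adjusted p = 0.958), and its sign turned with the scaling (0.03 with library size only). SRPRB, the membrane-anchored GTPase subunit that holds SRPRA at the ER (chr3:133502867-133544616, plus strand, 7 exons), was at 130.2 and 133.6 CPM in WT and at 120.3 and 125.7 CPM in Helz-null. Both Helz-null libraries were lower, by an amount that missed the threshold (log2 fold change -0.10 ± 0.034, edgeR's quasi-likelihood test, adjusted p = 0.0174).

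Some of these counts can share reads with other genes. SRP19 overlaps REEP5, on the opposite strand, over 21987 bases, and REEP5 had a log2 fold change of -0.143. SRP68, SRPRA and SRPRB also overlap neighbouring genes. The annotation lists 1 pseudogene named after SRP9, 5 after SRP14, 3 after SRP68 and 2 after SRP72, none of them among the genes of the count table used here. The effect of such copies on the counts was not tested.

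Levels were compared between genes per length, as RPKM (the CPM divided by the gene's width in kilobases). SRP9 was the most abundant in WT with a mean of 451 RPKM, followed by SRP14 (150), SRP68 (75.0), SRP72 (61.5), SRPRA (51.9), SRPRB (46.7), SRP54 (30.6) and SRP19 (19.9). In Helz-null the mean of SRP9 was 265 RPKM and that of SRP14 155 RPKM, and the order of the 8 genes was the same. In both genotypes, genes next to each other in this order had ranges over the 2 libraries that did not overlap. SRP9 mRNA was thus in excess over SRP14 mRNA in all 4 libraries, by a smaller factor in Helz-null.

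SRP9 was then set against all 7 partners in each library. The log2 CPM of SRP9 minus the mean log2 CPM of the partners was 2.42 and 2.43 in WT and 1.71 and 1.68 in Helz-null. The WT values were both higher, and the genotypes differed by -0.73, so that the ratio in Helz-null was 60.2% of that in WT (two-sided exact permutation test over the 4 libraries, p = 0.333, the smallest p that this design allows). Against single partners, the difference in log2 fold change ran from -0.84 for SRP54 (95% interval -0.93 to -0.74) to -0.65 for SRP68 (-0.73 to -0.57). No partner's interval reached 0. Of the 7 partners, 1 was lower (14.3%, near the 15.0% of all genes tested) and 0 were higher (13.4% of all genes tested), and their median log2 fold change was -0.05. As a share of the summed CPM of the 8 genes, SRP9 took 40.5% and 40.8% in WT and 29.5% and 29.2% in Helz-null. The 7 partners summed to 1069.7 and 1063.2 CPM in WT and to 1026.8 and 1037.4 CPM in Helz-null, a small gap beside that of SRP9.

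The position of each gene was examined next, with neighbours defined as tested genes whose start lies within 2 Mb. SRP9 had 23 such neighbours, and 23 of 23 were lower in Helz-null by edgeR's quasi-likelihood test, again against 15.0% of all genes tested. Their median log2 fold change was -0.66, and they ranged from -0.92 (ZNF678) to -0.46. In 7 of the 23 the log2 fold change was below that of SRP9, so SRP9 lay within the range of its neighbours. Between replicates of 1 genotype the same genes showed a median signed difference of 0.003 (WT) and 0.008 (Helz-null) on the log2 scale. Opposite signs cancel in such a median. In single genes the difference reached 0.152 in WT and -0.078 in Helz-null. All 23 calls were kept with each of the 4 libraries left out in turn.

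The 3 tested genes nearest on the side toward the centromere were DNAH14 (log2 fold change -0.53), LBR (-0.55) and ENAH (-0.52). On the side toward the telomere, EPHX1 (-0.47) and TMEM63A (-0.58) were the nearest. These genes have unrelated roles, LBR as the lamin B receptor of the inner nuclear membrane and EPHX1 as an epoxide hydrolase. Each of them fell, by less than SRP9.

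**Figure D2:**
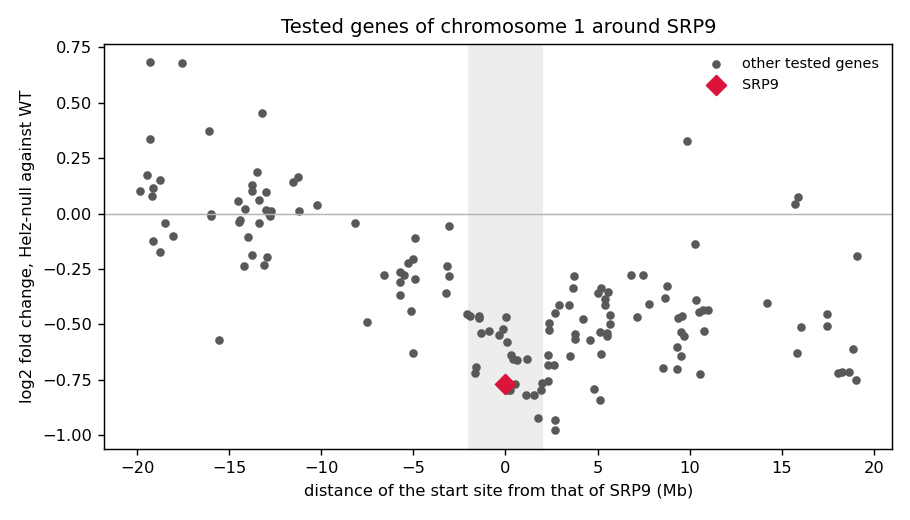
Log2 fold change (Helz-null against WT) of each tested gene on chromosome 1 within 20 Mb of SRP9, by the distance in Mb of its start from that of SRP9 (red diamond), with the window of 2 Mb on either side in grey. The 23 genes in the window all lie below 0, and the genes over 10 Mb before SRP9 scatter around 0.

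Lower expression was not limited to the window. In bins of 2 Mb, the median log2 fold change was -0.47 centred 2 Mb before SRP9, -0.64 centred on it (11 genes, without SRP9), -0.72 centred 2 Mb after, -0.54 at 4 Mb, -0.46 at 6 Mb, -0.40 at 8 Mb and -0.47 at 10 Mb after. On the other side it was -0.26 at 4 Mb, -0.28 at 6 Mb and -0.27 at 8 Mb before SRP9. Every bin held under 20 genes, and that at 8 Mb before held 2. From 10 to 20 Mb before SRP9, 40 tested genes had a median of 0.02, with 5 lower and 9 higher. Most genes were lower from about 6 Mb before SRP9 to 10 Mb after it.

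Of 9495 genes with at least 10 tested neighbours within 2 Mb, 56 (0.59%) had a window median of -0.5 or lower. Windows of neighbouring genes overlap, and 44 of these 56 genes lay within 20 Mb of SRP9, SRP9 included. The 14 genes with a window median at or below that of SRP9 all lay in this same region, so these counts largely describe 1 region many times. The 5th and 95th percentiles of all 9495 medians were -0.21 and 0.08.

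None of the partners lay in such a window. The median log2 fold change of the neighbours was -0.04 for SRP14 (35 genes), -0.00 for SRP19 (11), -0.04 for SRP54 (15), 0.01 for SRP68 (60), 0.06 for SRP72 (15), 0.06 for SRPRA (21) and 0.03 for SRPRB (12). Around SRP68, 2 neighbours were lower and 12 were higher, so its small decrease was not shared by most of its neighbours. Expression near the partners was close to that over all genes tested.

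**Figure D3:**
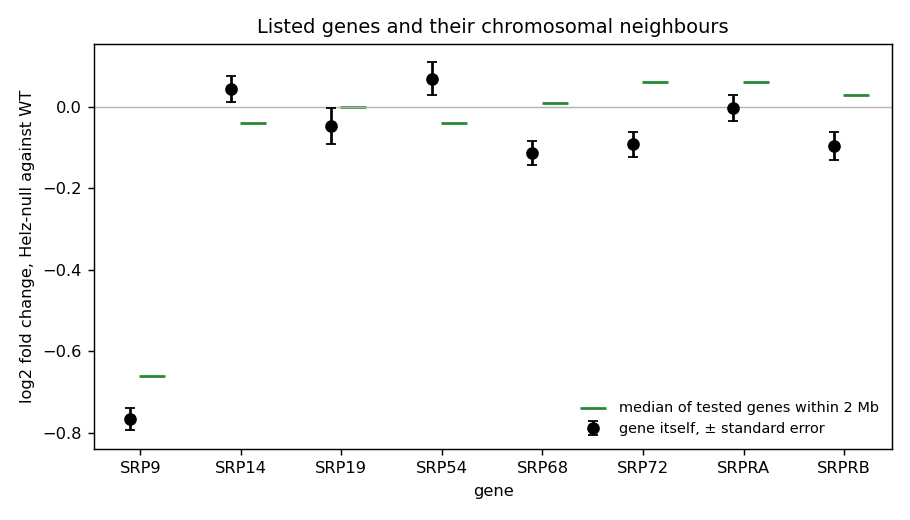
Log2 fold change (Helz-null against WT) of each of the 8 genes (black points, with the standard error as bars) beside the median of the tested genes within 2 Mb (green lines). SRP9 (-0.77) and the median of its neighbours (-0.66) are both low, while the other medians lie between -0.04 and 0.06.

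The genes whose profile over the 4 libraries was most like that of SRP9 were sought by the Euclidean distance between centred log2 CPM values. Among the closest were SNAP47 (distance 0.033), TMEM192 (0.038), JMJD4 (0.043) and AADAT (0.045). SNAP47 and JMJD4 lie 1.95 and 1.96 Mb from SRP9, and TMEM192 and AADAT lie on chromosome 4. With 4 libraries in 2 groups, such a distance reads little beyond the size of the difference between genotypes.

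Other genes of protein targeting and translocation were examined for comparison. Of 51 listed, 49 were tested. The genes of SRP RNA itself, RN7SL1 and RN7SL2, were not among the genes of the count table used here. By edgeR's quasi-likelihood test 13 were lower (26.5%, against 15.0% of all genes tested) and 5 were higher (10.2%, against 13.4%), and their median log2 fold change was -0.01. Most differences were small. The counts moved in each of the 4 fits with a single library left out, as did those over all genes tested. The genes called in all 4 of these fits were NACA, SEC11A, SPCS3, STT3B and UBL4A, all lower. The median log2 fold change of neighbours within 2 Mb was -0.14 for STT3B (14 genes), 0.01 for NACA (66) and -0.00 for UBL4A (41). Those of SEC11A and SPCS3 are given below.

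The signal peptidase complex, which cleaves the signal sequence after SRP has delivered the ribosome, held the largest differences among these lists, with 3 of 5 genes lower (60%, against 15.0% of all genes tested). SPCS3, an accessory subunit, was at 193.4 and 206.1 CPM in WT and at 134.8 and 138.1 CPM in Helz-null, and fell with a log2 fold change of -0.55 ± 0.033 (edgeR's quasi-likelihood test, adjusted p = 1.77e-18). SEC11A, a catalytic subunit, was at 147.0 and 151.3 CPM in WT and at 115.8 and 112.5 CPM in Helz-null, with a log2 fold change of -0.39 ± 0.033 (edgeR's quasi-likelihood test, adjusted p = 2.63e-13). Neither gene's groups overlapped. SPCS1 was lower by a smaller amount (-0.16), a call lost without Helz-null replicate 2, and SPCS2 and SEC11C were not called. As with SRP9, neighbours of these 3 genes were also low: the median log2 fold change within 2 Mb was -0.38 for SPCS3 (2 genes only, chromosome 4), -0.35 for SEC11A (18 genes, chromosome 15) and -0.23 for SPCS1 (41 genes, chromosome 3). Of the genes with at least 10 neighbours, 6.5% had a window median of -0.15 or lower.

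**Figure D4:**
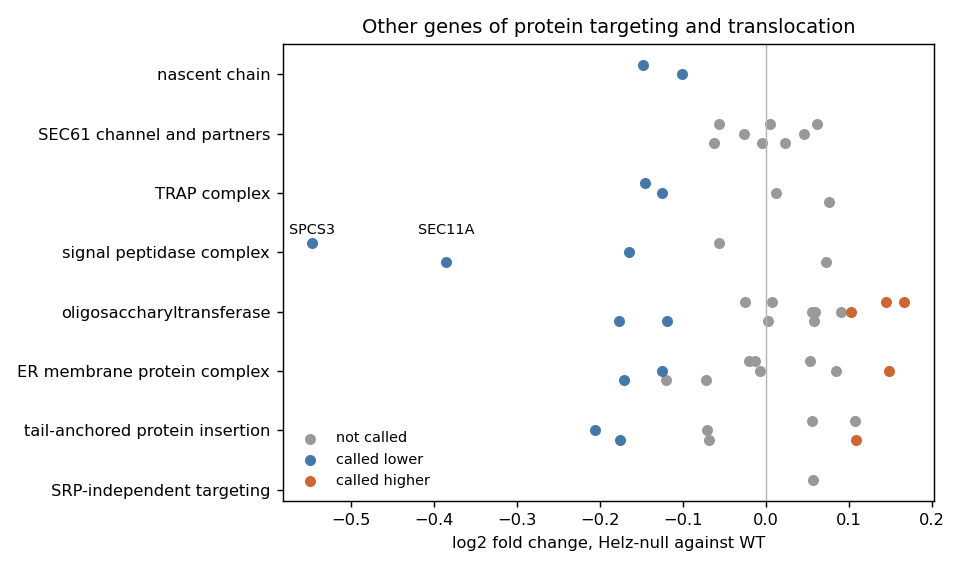
Log2 fold change (Helz-null against WT) of the other tested genes of protein targeting and translocation, 1 point a gene, by list, with genes called lower in blue, called higher in orange and not called in grey. SPCS3 (-0.55) and SEC11A (-0.39) lie apart from the rest, which range from -0.21 to 0.17.

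The SEC61 channel, to which the receptor hands the ribosome, and its partners showed no called difference. None of the 8 genes passed edgeR's quasi-likelihood test (log2 fold changes -0.06 to 0.06), with 0 at an unadjusted p under 0.05 and 0 by DESeq2. The subunits of the nascent polypeptide-associated complex, which competes with SRP at the ribosome exit, were both lower, NACA with -0.15 and BTF3 with -0.10, of which BTF3 was called in 1 of the 4 fits with a library left out (without WT replicate 2). In the TRAP complex beside the channel 2 of 4 were lower (SSR1 -0.13, SSR3 -0.15), against 15.0% of all genes tested. SSR1 kept its call only without WT replicate 1, and SSR3 lost it only without WT replicate 2.

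The lists acting after or beside SRP were mixed in direction, and with so few genes each their counts are read beside the 15.0% lower and 13.4% higher of all genes tested. Of 12 oligosaccharyltransferase genes, which attach N-glycans to entering proteins, 2 were lower (16.7%; STT3B -0.18, OSTC -0.12) and 3 were higher (25.0%; RPN2 0.10, DAD1 0.14, TMEM258 0.17). Of 10 genes of the ER membrane protein complex, an insertase, 2 were lower (20%; EMC1 -0.13, EMC6 -0.17) and 1 was higher (10%; EMC8 0.15). Of 7 genes for insertion of tail-anchored proteins, 2 were lower (28.6%; UBL4A -0.21, CAMLG -0.18) and 1 was higher (14.3%; BAG6 0.11), and TMEM208, of the SRP-independent route, was not called. Of these, STT3B and UBL4A kept their calls with each library left out, and BAG6 lost it without Helz-null replicate 1. RPN2 and CAMLG lost theirs without Helz-null replicates 1 and 2 or WT replicate 1, EMC1 and EMC6 without Helz-null replicates 1 and 2 or WT replicate 2, DAD1 without either Helz-null replicate, TMEM258 without Helz-null replicate 2 or WT replicate 1, OSTC without Helz-null replicate 2 or WT replicate 2, and EMC8 without Helz-null replicate 1 or WT replicate 1. For the calls lost in this way, the adjusted p of edgeR's quasi-likelihood test ran from 0.00525 to 0.244.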

How the data were processed

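RNA-Seq libraries of 2 WT and 2 Helz-null HEK293T replicates were compared. Bowtie2 served the authors to filter out rRNA reads and TopHat2 to map read pairs to hg19, and the authors deposited raw counts with a width for each gene. Versions, annotation, strand setting, the counting of mates and the handling of reads with several matches were not given in the sources used here. The study calls the replicates biological. A deposited table with the authors' own comparison (log2 fold change, mean log2 CPM, p-value and FDR per gene) was not used.

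Counts were tested with edgeR 4.0.16 (limma 3.58.1, R 4.3.3; TMM, quasi-likelihood F test, Benjamini-Hochberg over 11606 genes, called at an adjusted p under 0.005), and the code was tested on simulated data. Log2 CPM values used a prior count of 2. Alternatives were DESeq2 1.42.0, other scalings, filters, thresholds and windows, thinned or halved counts, the replicate block and each library left out, where the lone library of a genotype was assumed to vary like the other pair. A floor of 3 counts was 0.0426 to 0.0719 CPM and covers counting error only. Positions came from GENCODE v44 lifted to GRCh37, by symbol for 10636 tested genes and by older symbol for 545, while 425 had none. Tables and plots used Python 3.11.15, pandas 2.3.3, numpy 2.4.6 and matplotlib 3.10.9.

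Genes named were the 8 listed genes, HELZ, called genes of the targeting lists, the 3 tested genes nearest to SRP9 on either side, the 5 closest profiles, and genes whose symbol begins with that of a listed gene; 1 gene that this rule names is not reported here. ZNF678, REEP5 and uncalled genes were named after their values were seen. Members and lists were chosen with earlier results of these data known.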

Additional observations from a re-analysis of the deposited data

How the results depend on the processing

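SRP9 was lower in 14 of 14 alternatives (log2 fold change -0.77 to -0.73, Benjamini-Hochberg adjusted p 9.52e-185 to 2.69e-19 with edgeR's quasi-likelihood test or DESeq2). Of these, 1 was the main fit read at an adjusted p under 0.05, so its outcome for SRP9 was fixed in advance. Its difference from its partners was -0.75 to -0.72 over the alternatives. Measured from the median log2 CPM of the 7 partners within each library, it was -0.77. Over all results, 222 of 255 values kept direction and side of the threshold or moved little. The 255 include values from that second reading of the main fit. With library size only, SRP9 was the 1 listed gene called lower, the median of the 8 was -0.04 and that of the neighbours of SRP9 -0.62. SRPRA was 0.03, and 7 targeting genes were lower and 6 higher. Over all genes tested, 1331 were lower and 2127 higher with this scaling, against 1736 and 1558 with TMM, so the balance of directions turned. With DESeq2, 8 targeting genes were lower and 2 higher. Those higher numbered 1 with filterByExpr and 3 with thinned libraries, where SRPRA was 0.00. At an adjusted p under 0.05, 4 listed genes were lower (22.1% of all genes tested), 8 targeting genes higher and 2426 genes higher in all (20.9%). A window of 5 Mb gave SRP9's neighbours a median of -0.57. With single libraries left out, listed genes called lower numbered 1 to 2, their median was -0.09 to -0.04, targeting genes lower 6 to 11 and higher 1 to 7, genes higher 1018 to 1559, and SRPRA was -0.03 to 0.03. Causes were not tested. Targeting genes in windows with a median of -0.15 or lower were also left out, a choice made after seeing the data. Without these (SPCS3, SEC11A, SPCS1 and EMC3), 10 of the rest of the 49 tested were lower, beside 15.0% of all genes tested. Replicate numbers did not pair the libraries (correlation of deviations across genes 0.0254), and with the replicate block SRP9 was -0.77, 1881 genes were lower and 1719 higher, and no call of a listed gene changed. Replicates differed by more than counting noise (chi-square per degree of freedom 3.44 in WT and 2.67 in Helz-null), and 2 libraries a group limit small differences.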
